A study of Mus musculus with 6 samples.

Results

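Among the neurons of the mouse olfactory bulb, the study named 1 cluster of cells olfactory sensory neurons (OSNs), n01-OSNs. The cluster was taken as the study's neuron annotation gives it, and it holds 1200 of 21746 annotated neurons and of 51426 annotated cells. Single cells were captured in 6 libraries, each from a pool of 3 C57BL/6NJ mice aged 14 weeks, with 2 libraries per condition. Control mice are labelled as without manipulation, naris-occluded mice had a nostril blocked for 6 weeks, with the bulb of the blocked side taken, and trained mice learned odor discrimination over 6 weeks. In each condition, library 1 came from males and library 2 from females. The study's text describes the control both as naive mice and as the open side of occluded mice, so what a control library holds as a model is not settled here. The whole bulb was dissected with the tissue in front of it, and the labels state that cells of the adjoining olfactory epithelium are included.

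OSNs have their cell bodies and cilia in the olfactory epithelium and send their axons through the olfactory nerve into the glomeruli of the bulb. A mature OSN expresses a single odorant receptor gene. Odorant binding activates the G protein made of Gnal, Gnb1 and Gng13, which drives the adenylyl cyclase Adcy3, and cAMP opens the cation channel built around Cnga2. Omp (olfactory marker protein) marks the mature state, and S100a5, a calcium-binding protein, is known as a gene whose level in OSNs follows sensory activity. Blocking a nostril removes most odor-evoked activity from the OSNs of that side.

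The sequences shown here are the 250 bases before the RefSeq start of 4 genes (GRCm38.p6, forward strand). S100a5 and Gng13 carry most of the comparisons that follow. Acbd7 and BC049352 are the 2 of the 20 most n01-enriched genes with the palindrome TCCCNNGGGA in these bases. BC049352 is among the 20 only through the naris-occluded libraries, since its mean over the control and trained libraries was 39.8 CPM and 50 CPM were needed. The palindrome is a form of the site of Ebf factors, which bind upstream of several OSN-specific genes. Capitals mark that palindrome.
Acbd7, chr2:3335918-3336167: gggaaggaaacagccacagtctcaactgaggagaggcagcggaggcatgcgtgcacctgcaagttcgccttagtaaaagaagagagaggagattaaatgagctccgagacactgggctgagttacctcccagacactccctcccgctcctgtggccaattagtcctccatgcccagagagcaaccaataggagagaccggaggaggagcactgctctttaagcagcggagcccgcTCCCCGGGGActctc
BC049352, chr9:45195516-45195765: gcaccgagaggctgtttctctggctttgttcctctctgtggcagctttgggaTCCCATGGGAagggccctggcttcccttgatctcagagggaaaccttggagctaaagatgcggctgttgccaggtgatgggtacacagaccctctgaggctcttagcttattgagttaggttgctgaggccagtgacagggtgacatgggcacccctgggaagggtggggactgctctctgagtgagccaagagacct
S100a5, chr3:90608272-90608521: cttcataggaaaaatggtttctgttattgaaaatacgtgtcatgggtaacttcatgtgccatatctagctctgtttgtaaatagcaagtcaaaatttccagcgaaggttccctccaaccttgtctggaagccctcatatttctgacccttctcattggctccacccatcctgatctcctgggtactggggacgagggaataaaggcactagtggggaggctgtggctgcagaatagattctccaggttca
Gng13, chr17:25716922-25717171, the first of its 2 windows: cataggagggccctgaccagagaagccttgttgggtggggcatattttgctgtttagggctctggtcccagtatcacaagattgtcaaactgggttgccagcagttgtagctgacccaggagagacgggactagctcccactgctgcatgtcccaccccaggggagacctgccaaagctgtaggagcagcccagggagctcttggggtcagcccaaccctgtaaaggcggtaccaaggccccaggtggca
Each window has 300 bases and ends 50 bases after the start. Motifs were searched on both strands in the 250 bases before the start only, and 16 of the 20 genes had a window, with 18 windows in all. Of all 32851 windows, 0.779% held the palindrome there. TGACGTCA, the cAMP response element, was found there in none of the 16 genes and in 1.55% of all windows. TATAAA was in windows of Gm16196 and Tstd1 and in 12.4% of all, and TAATTA was in a window of Sult1d1 and in 4.84% of all. A match of letters is a description of the sequence and not a bound site.

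The libraries held between 2777 and 5056 neurons. Cells of n01 numbered 256 in control 1, 211 in control 2, 186 in naris-occluded 1, 113 in naris-occluded 2, 288 in trained 1 and 146 in trained 2. Their UMIs (unique molecular identifiers, each marking 1 captured RNA molecule) summed to between 93860 in naris-occluded 2 and 269202 in control 1. Cells of n01 were shallow, with a median of 808.5 UMIs and 327 genes per cell. In 434 n01 cells of the trained libraries the cell name starts with the name of the other trained library, and the library column was used. With it, n01 held 0, 1 and 0 Xist UMIs in the 3 male pools and 14, 7 and 20 in the 3 female pools, and 4 Ddx3y UMIs in each male pool and 0 in each female pool. The barcodes of 70 n01 cells also occur in another library, 2 of them in an n01 cell. Where 2 values are given for a condition, library 1 comes first.

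The markers of the label had their highest level of all 18 neuronal types in n01. Levels are given as CPM, counts per 1000000 UMIs of the cells of a type in a library, and as mean ± SD over the 6 libraries. Because n01 was found by clustering these same cells, its differences from the other types are described without a test. Omp stood at 780 and 761 CPM under control conditions, 820 and 703 under occlusion and 594 and 696 after training. This is a mean of 726 ± 79.9 CPM, against 62.7 ± 16.9 in n13-AstrocyteLike, the next type.

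Gng13, the gamma subunit of the olfactory G protein, stood at 18375 ± 3771 CPM in n01 and at 2122 ± 345 in n13-AstrocyteLike. S100a5 stood at 20491 ± 6988 CPM and at 2393 ± 1142. For all 3 markers the lowest n01 library lay above every library of every other type. After every cell was thinned to 500 UMIs, with no cell left out, 26.8% of n01 cells held an Omp UMI, against 3.29% in n13-AstrocyteLike (41.9% and 4.58% unthinned, with median depths of 808.5 and 656 UMIs). For Gng13 the thinned shares were 97.8% and 56.3%, and for S100a5 92.0% and 60.4% (99.0% and 65.5%, and 94.3% and 69.1%, unthinned). In n04-Immature, a type of young interneurons that should lack these genes, the thinned shares were 1.07% for Omp and 18.9% for S100a5 and for Gng13, at a median depth of 1668 UMIs. A UMI of S100a5 or Gng13 in a cell therefore did not by itself mark an OSN.

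**Figure D1:**
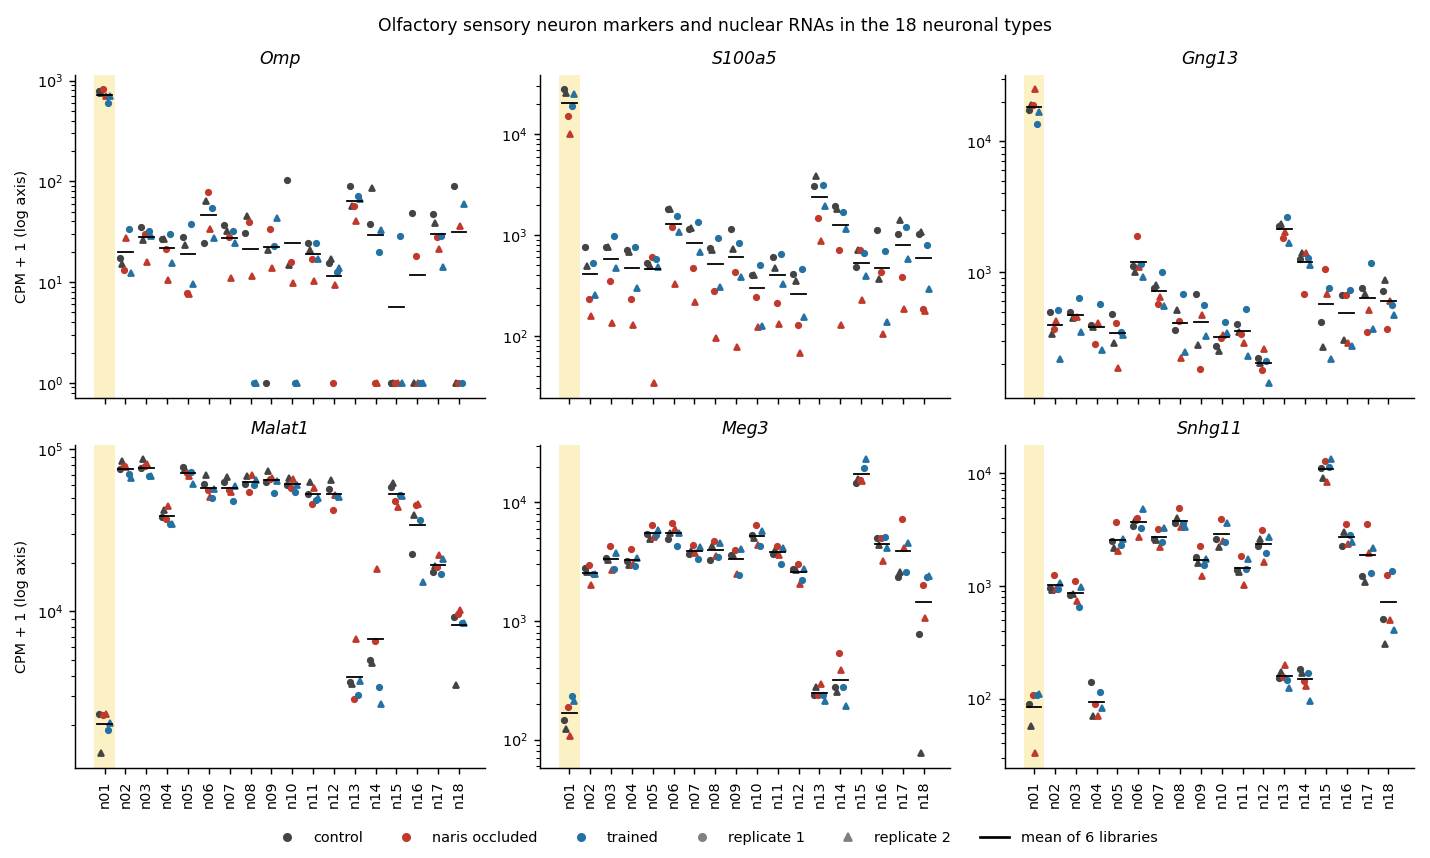
Level (CPM + 1, log axes) of 3 OSN markers (top) and 3 RNAs retained in the nucleus (bottom) in the 18 neuronal types, with each point 1 library and each bar the mean of 6 libraries. In n01 (shaded) the means of Omp, S100a5 and Gng13 are highest, at 726, 20491 and 18375 CPM. Those of Malat1, Meg3 and Snhg11 are lowest, at 2030, 167 and 83.5 CPM. The mean of Snhg11 is close to the 93.2 CPM in n04-Immature.

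Beyond the markers, the 20 genes with the largest ratio of n01 to the next type ranged from 7.86-fold to 15.5-fold, and n01 was above that type in all 6 libraries for each. Only genes with at least 50 CPM in n01 were ranked, and the ranks served to choose the genes. The largest ratio was that of Acbd7, which encodes an acyl-CoA binding domain protein, with 760 ± 140 CPM in n01 and 49.0 in n14-GC-7. Stoml3, a stomatin-like protein of olfactory cilia, stood at 417 ± 64.4 CPM against 35.9 in n13-AstrocyteLike. Pth2, which encodes the neuropeptide TIP39, stood at 352 ± 89.6 CPM against 29.6 in n06-Transition.

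Tstd1 (261 CPM, 13.4-fold), Nrn1l (207 CPM, 13.2-fold) and Efcab10 (236 CPM, 12-fold) were also among the 6 leading genes by fold, while 1700012B09Rik and 1110017D15Rik, listed with the cilia genes, had 438 ± 59.3 and 400 ± 80.5 CPM. Sult1d1, a cytosolic sulfotransferase, had 74.1 ± 40.2 CPM. The lncRNAs Gm16196, 1700097N02Rik, 5730403I07Rik and Gm6878 lay between 61.8 and 79.1 CPM. For 2 of the 20 genes, the mean over the control and trained libraries was under 50 CPM, so they were ranked only through the naris-occluded libraries. These were 1700097N02Rik, with 29.7 and 23.6 CPM in control, 91.1 and 160 in naris-occluded and 33.0 and 33.8 in trained libraries, and BC049352, with 44.6 and 52.0, 99.4 and 74.6, and 28.9 and 33.8 CPM. Rsph1 (7.78-fold) and Pifo (7.81-fold), just outside the list, are both genes of motile or primary cilia. On GRCm38.p6, S100a5 (chr3:90606480-90611784), Stoml3 (chr3:53488707-53508863) and Pth2 (chr7:45179701-45181838) overlap no other RefSeq gene. Omp (chr7:98143359-98145447) overlaps Capn5, Gng13 (chr17:25717172-25719102) overlaps Chtf18 and Acbd7 (chr2:3332814-3340998) overlaps Rpp38, and no source used here says whether the counting used strand.

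**Figure D2:**
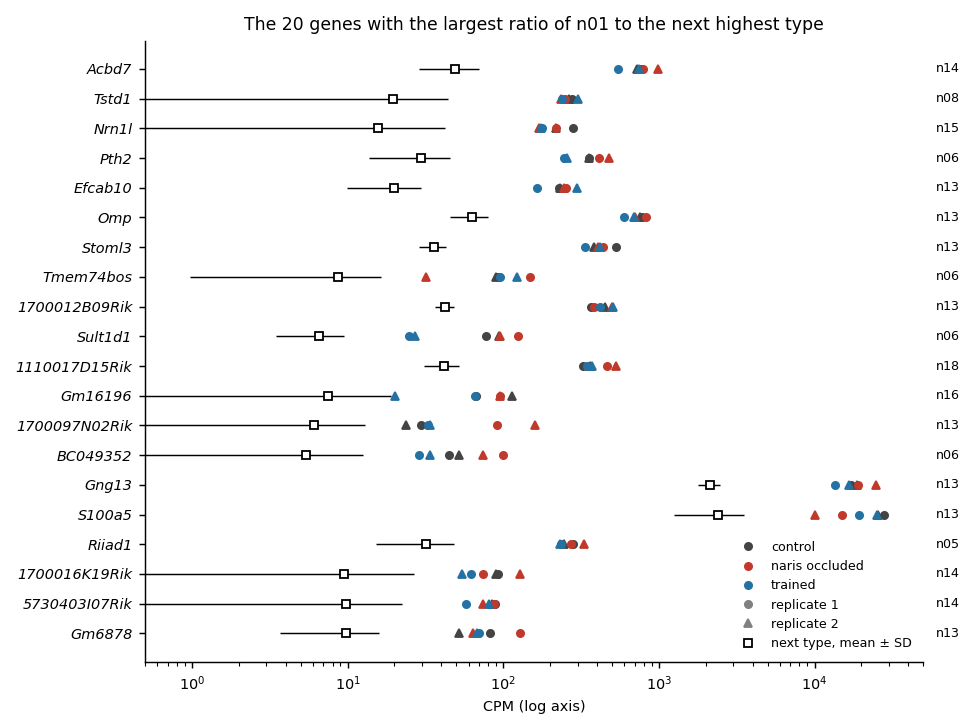
CPM (log axis) of the 20 genes with the largest ratio of n01 to the next neuronal type, with the n01 libraries as coloured points and the mean ± SD of the next type over 6 libraries as squares; SD bars that reach 0 stop at the axis edge. The genes span from 55.5 CPM (BC049352) to 20491 CPM (S100a5) in n01.

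Over the 18 types, the genes whose mean level followed that of Omp most closely were Fam213b (Pearson r = 0.924), 1700012B09Rik (0.924), Cnga2 (0.913), S100a5 (0.905) and Acbd7 (0.903), on log2(CPM + 1). These 18 points share libraries and depth, and n01 is the extreme point in each, so the values are a description. Below n01, the order of the types was n13-AstrocyteLike, then n06-Transition, by the mean of each of the 3 markers. For Omp these stood at 62.7 ± 16.9 and 45.9 ± 21.8 CPM, with n13-AstrocyteLike above in 4 of the 6 libraries. For S100a5 they stood at 2393 ± 1142 and 1301 ± 568 CPM, with n13-AstrocyteLike above in 6 of 6, and for Gng13 at 2122 ± 345 and 1192 ± 353 CPM, above in 5 of 6. The second place of n06-Transition was not firm. Its level was above that of n14-GC-7 in 3 of 6 libraries for Omp, in 2 of 6 for S100a5 (1301 against 1244 CPM) and in 1 of 6 for Gng13 (1192 against 1190 CPM).

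Genes of olfactory transduction were often highest in n01. Of 22 listed genes in the table, 11 had their highest level in n01, against 969 of 18560 genes in the table (5.22%). The lowest level of the 18 types was in n01 for 24.7% of the genes in the table. Of 11137 genes with a mean of at least 5 CPM over the 18 types, 1.72% were highest and 41.1% lowest in n01, so counts of genes lowest there are read against that share. Among the 11 were the G protein subunits Gnal, Gnb1 and Gng13, the channel subunits Cnga2, Cnga4 and Cngb1, the receptor transporters Rtp1 and Rtp2, and Stoml3 and Omp. Gnb1 stood at 1651 ± 322 CPM (1.48-fold over n02-PGC-1).

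Several genes of the same pathway were near the floor. Cnga2 had 15.6 ± 12.6 CPM, with a UMI in 1.33% of n01 cells, against 1.93 CPM in the next type. Gnal had 82.4 ± 39.8 CPM, against 50.6 in the next type. Adcy3, the cyclase between them, had 10.2 ± 6.1 CPM, and n01 ranked 16 of 18 types for it. A gene of 15.6 CPM gives fewer than 1 UMI in a cell of 808.5 UMIs, so its absence from a cell is not detectable at this depth.

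None of 9 listed markers of immature OSNs was highest in n01. Of genes detected over the types 1.72% were highest there, so this count is no result about the 9. Of the 9, 4 (44.4%) were lowest in n01, close to the 41.1% of detected genes. The summed level of the 9, 721 ± 114 CPM, was the lowest of the 18 types, but within its SD of the 733 CPM in n07-GC-2. Gng8, the G protein gamma subunit of immature OSNs, had 54.0 ± 32.4 CPM, and Gap43, a growth cone protein, had 62.5 ± 29.5 CPM. Tubb3, a general neuronal tubulin that the study used to call neurons, had 90.3 ± 30.2 CPM in n01, the lowest level of all 18 types, with 4.83% of thinned n01 cells holding a UMI against 53.4% in n04-Immature.

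Genes for axon sorting and neuronal activity were highest in n01 for 3 of 19, which were S100a5, Kirrel2 and Hist2h2be. Hist2h2be, a histone variant known from OSNs, had 79.9 ± 15.4 CPM against 14.6 in n15-M/TC-1. Among 11 transcription factors, Atf5 (553 ± 62.8 CPM, 6.55-fold over n13-AstrocyteLike) and Ebf2 were highest in n01. Atf5 drives OSN maturation together with the unfolded protein response, and it was the only gene of 10 unfolded protein and stress genes that was highest in n01, while 5 of the 10 (50%) were lowest there.

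OSN axons end in synapses, and presynaptic genes were listed for that reason. Of 22 measured genes, 0 were highest and 9 (40.9%) were lowest in n01. Of genes detected over the types, 1.72% were highest and 41.1% lowest there. Syt1, the calcium sensor of vesicle release and the other gene with which the study called neurons, had 129 ± 30.9 CPM in n01, the lowest of 18. Doc2g, a double C2-domain protein, stood at 628 ± 135 CPM, close to 671 in n17-M/TC-3, the highest type.

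Of 24 axonal transport and cytoskeleton genes, Tmsb4x, which binds actin monomers, and Kif5b, the ubiquitous heavy chain of kinesin-1, were highest in n01. Tmsb4x stood at 8833 ± 726 CPM (1.90-fold over n04-Immature) and Kif5b at 1370 ± 388 CPM (4.18-fold over n06-Transition). Of the 24, 9 (37.5%) were lowest in n01, Actb among them at 828 ± 195 CPM, a share no higher than that of all detected genes. None of 12 immediate early genes was highest in n01 and 2 (16.7%) were lowest, against 1.72% and 41.1% of genes detected over the types. At that share, 0 of 12 highest is no result about the list. The sum of the 12 genes, 196 ± 76.3 CPM, was the lowest of the 18 types. Of 13 metal and redox genes, 3 were highest, with Atox1, a copper chaperone, at 1150 ± 109 CPM (3.12-fold over n13-AstrocyteLike) and Mt2, a metallothionein, at 755 ± 150 CPM (1.27-fold).

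RNAs retained in the nucleus were scarce in n01. Of 8 listed lncRNAs in the table, 7 (87.5%) had their lowest level of all 18 types in n01, and the summed level was 2359 ± 393 CPM against 4510 ± 1610 in n13-AstrocyteLike and 83283 in n15-M/TC-1. Malat1, a lncRNA that stays in nuclear speckles, stood at 2344 and 1337 CPM in control, 2299 and 2312 after naris occlusion and 1847 and 2041 in trained libraries. In n03-GC-1 it stood at 76885 CPM. Meg3 (167 ± 49.7 CPM) and Snhg11 (83.5 ± 32.1 CPM) also had their lowest mean in n01. For Snhg11 this mean was within its SD of the 93.2 ± 27.3 CPM in n04-Immature. A Snhg11 UMI was found in 5% of thinned n01 cells and in 3.94% in n04-Immature, so by this share n01 was not lowest. The thinned shares in n13-AstrocyteLike, n14-GC-7 and n17-M/TC-3 were higher, at 6.75%, 6.33% and 17.2%. The median n01 cell held 0.105% Malat1 UMIs, and 38.8% of n01 cells held none. Another 4 types had medians under 0.2%, n18-EPL-IN (0.152%), n14-GC-7 (0.158%), n13-AstrocyteLike (0.173%) and n17-M/TC-3 (0.186%), and the remaining 13 lay between 3.06% and 7.47%.

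RNAs encoded in the mitochondrial genome were high in n01. Of 13 such genes, 12 had their highest level in n01, and together they held a median of 39.0% of the UMIs of an n01 cell, against 30.5% in n13-AstrocyteLike, 29.7% in n14-GC-7 and 6.35% in n12-GC-6. In n17-M/TC-3 and n18-EPL-IN, which also had little Malat1, the medians were 16.4% and 15.0%. The library medians in n01 were 38.2% and 39.4% in control, 40.5% and 41.8% in naris-occluded and 36.9% and 39.3% in trained libraries, above the highest library median of every other type. No n01 cell exceeded 59.97%, and 137 cells were at or over 50%. Of 81 nuclear-encoded genes of oxidative phosphorylation, 15 (18.5%) were highest in n01 and 16 (19.8%) lowest. The 15 exceeded the next type by 1.02-fold to 1.65-fold, with Cox8a, a subunit of cytochrome c oxidase, at 3400 ± 249.6 CPM (1.08-fold over n13-AstrocyteLike, above it in 3 of 6 libraries and within its SD of 459 CPM), while Atp5k, a subunit of ATP synthase, stood at 1914 ± 293 CPM (1.42-fold over n12-GC-6, above it in 6 of 6).

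Transcripts of cytosolic ribosomal proteins were also abundant in n01. Of 86 genes, 36 were highest there, and their sum of 180444 ± 6338 CPM compares with 144861 in n04-Immature, the next type. Because CPM is a share of all UMIs, the 39.0% taken by mitochondrial RNA lowers the CPM of every other gene in n01. Whether n01 barcodes hold whole cells or parts of cells was not tested.

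**Figure D3:**
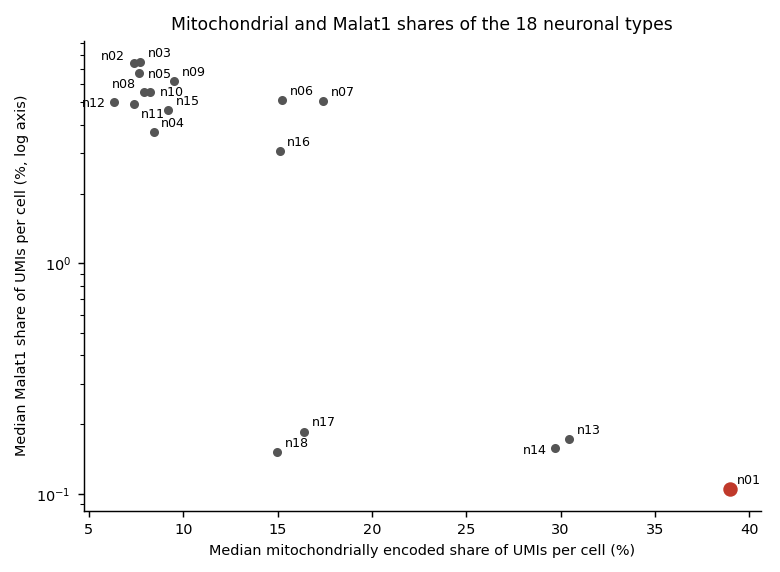
Median share of UMIs per cell from mitochondrially encoded genes (x, %) and from Malat1 (y, %, log axis) in each of the 18 neuronal types. n01 sits at the lower right, at 39.0% mitochondrial and 0.105% Malat1, next to n13 and n14, while 13 types lie above 3%.

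Markers of other cells of the epithelium were at or near 0 in n01, while those of glia and of bulb interneurons were present. Of the listed genes of sustentacular cells in the table, 1 of 5 had a UMI in n01, of Bowman's gland 0 of 5, of microvillar cells 1 of 4 and of basal cells 3 of 5, and none reached 5 CPM. Vomeronasal receptors had a UMI for 1 of 12 genes. Inhibitory interneuron genes summed to 819 ± 230 CPM, between 533 and 1220 in the libraries, led by Gad1 at 280 CPM. This was the lowest sum of the 18 types, but close to 833 in n17-M/TC-3, and 1 of the 10 genes was lowest in n01. Ensheathing glia genes summed to 2476 ± 457 CPM, between 1825 and 3243 in the libraries, against 6264 in n13-AstrocyteLike, and they were led by Fabp7 at 1172 ± 258 CPM. Astrocyte genes summed to 952 CPM, myelin genes to 1652 and microglia genes to 293, and in n13-AstrocyteLike to 1924, 5560 and 496. The ensheathing and myelin sums lay above the level of Omp, 726 CPM. An Mbp UMI, of the myelin basic protein gene, was found in 40.8% of thinned n01 cells (51.7% unthinned), more than the 26.8% with Omp, against 70.6% in n13-AstrocyteLike, 40.8% in n17-M/TC-3 and 30.4% in n04-Immature. A Gad1 UMI was found in 15.2% (25.2% unthinned), against 29.7%, 15.1% and 13.8%. The part of these genes in the results on n01 was not tested.

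Within n01 the cells were not uniform. In the clustering of the whole bulb, 917 of the 1200 cells (76.4%) fell into cluster N5 and 249 (20.8%) into N6, and the rest were spread over 8 clusters with at most 9 cells each. Cells in N5 held a median of 3.73% S100a5 and Gng13 UMIs and 41.8% mitochondrial UMIs. Cells in N6 held 1.95% and 32.8%, with a median of 677 UMIs against 857 in N5. N5 held 1089 neurons in all, of which the second clustering placed 171 in n13-AstrocyteLike and 1 in n04-Immature. A small group of 28 n01 cells held over 1% Malat1.

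Transcripts of the odorant receptor genes in the table were rare but most frequent in n01. Of these 39 genes, 22 had a UMI in n01. A receptor gene missing from the table could not be counted. This limits both the shares of cells and the numbers of receptor genes per cell given below. A receptor UMI was found in 60 of 1200 cells (5.0%, 95% Wilson interval 3.90 to 6.38%), against 1.56% in n13-AstrocyteLike and 0 to 1.33% in the other 16 types. Intervals here cover counting error only. After thinning, the shares were 3.0% and 1.22%. Of the 60 cells, 59 held UMIs of a single receptor gene and 1 held UMIs of 2 genes, and of the 26 cells with at least 2 receptor UMIs, 25 held 1 gene.

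Cells with 4 or more receptor UMIs numbered 8 in n01 and 3 in the other 17 types. The highest was a control 2 cell with 30 Olfr1420 UMIs among 2956, and it also held 7 Omp UMIs. Olfr1420 gave 47 UMIs in 4 n01 cells and Olfr1295 gave 25 UMIs in 5 cells, all of them in the naris-occluded libraries (8 and 17 UMIs). Next came Olfr309 with 14 UMIs in 9 cells in 5 of the 6 libraries, and Olfr287 with 8 UMIs in 8 cells. Olfr287 had 28 UMIs outside n01, more than inside. Olfr727, Olfr1229, Olfr1288, Olfr1297, Olfr118 and Olfr1301 had between 4 and 6 UMIs each. Olfr1288 (chr2:111478786-111479724), Olfr1295 (chr2:111564504-111565442), Olfr1297 (chr2:111621134-111622072) and Olfr1301 (chr2:111754251-111755189) lie in 1 stretch of related genes, where reads of near-identical copies could have been split, so these counts are uncertain.

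Omp, the marker of mature OSNs, was found in 60% of the cells with a receptor UMI, against 41.0% of the 1140 cells without one, at median depths of 942 and 802.5 UMIs, and 39.9% and 38.9% mitochondrial UMIs. By library, 10 of 256 and 9 of 211 control cells, 18 of 186 and 6 of 113 naris-occluded cells, and 13 of 288 and 4 of 146 trained cells held a receptor UMI. Naris-occluded 1 was the highest at 9.68%, and the others lay between 2.74% and 5.31%, so the conditions were not tested on these few cells.

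To ask how sensory input bears on gene expression in n01, UMIs were summed over the n01 cells of each library and tested for 1741 genes with edgeR's quasi-likelihood test, with Benjamini-Hochberg adjustment over all of them. Naris-occluded libraries differed from control libraries in 5 genes (0.287% of those tested), of which 4 were higher (0.23%) and 1 was lower (0.0574%). Of the 4, 1700097N02Rik reached the 44.1 CPM needed for testing only in the 2 naris-occluded libraries, so it was tested through the condition where it is high. An unadjusted p under 0.05 was found for 86 genes (4.94%). Nothing in the labels says that the 2 pools of a condition were handled apart, so the spread between them may be partly technical. The 3 comparisons share libraries.

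S100a5 fell with occlusion. It stood at 28031 and 25567 CPM without manipulation, 15027 and 10026 with a blocked naris and 19259 and 25037 after training. Both naris-occluded libraries lay below all 4 of the others. Naris-occluded and control libraries did not overlap in 37.4% of the genes, and the share of genes with the order over all 6 libraries was not counted. The log2 fold change was −1.01 ± 0.19 (SE, edgeR adjusted p = 0.0041), and it was negative within the male and within the female pools. The call was lost without control 1 (−1.0, adjusted p = 0.18), without control 2 (−1.05, 0.053) and without naris-occluded 2 (−0.76, 0.88), and over the alternatives the adjusted p ran from 2.5e-12 to 0.88.

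The fall was also seen cell by cell. At 500 UMIs per cell, the median n01 cell held 10 and 9 S100a5 UMIs under control conditions, 5 and 2 under occlusion and 7 and 9 after training. Cells without S100a5 made up 4.69% and 5.21% of control, 16.1% and 30.1% of naris-occluded and 4.86% and 4.11% of trained n01 cells. The other 2 markers gave different values. Gng13 stood at 17203 and 18839 CPM in control, 18987 and 24941 in naris-occluded and 13548 and 16730 in trained libraries, and its log2 fold change with occlusion was 0.36 (95% interval −0.00 to 0.73, edgeR adjusted p = 0.93). Omp changed by 0.08 (−0.36 to 0.52), a value that was −0.05 with no filter on low counts.

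Kif5b, the kinesin-1 heavy chain, was higher in the naris-occluded libraries. It stood at 795 and 1106 CPM in control, 1810 and 1641 in naris-occluded and 1241 and 1629 in trained libraries, and the log2 fold change was 0.95 ± 0.21 (edgeR adjusted p = 0.020). Plekhm2, an adaptor between kinesin-1 and lysosomes, had 14 and 12 UMIs in control, 35 and 21 in naris-occluded and 15 and 10 in trained libraries, with a log2 fold change of 1.74 ± 0.36 (adjusted p = 0.012). For both genes the naris-occluded libraries lay above the control libraries without overlap. Groups without overlap, in either direction, occurred in 37.4% of all tested genes.

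Mcf2l, a guanine nucleotide exchange factor, had 483 and 586 CPM in control, 882 and 1310 in naris-occluded and 577 and 642 in trained libraries (1.09 ± 0.23, edgeR adjusted p = 0.012). The lncRNA 1700097N02Rik had 8 and 5 UMIs in control, 22 and 15 in naris-occluded and 8 and 5 in trained libraries (2.12 ± 0.46, adjusted p = 0.014). Genes were tested where at least 2 libraries reached 44.1 CPM, and for this lncRNA only the 2 naris-occluded libraries did, so it entered the test through the condition where it is high. With no filter on low counts it did not pass, nor did Plekhm2, Mcf2l and Kif5b. Both naris-occluded libraries were the highest of the 6 for Plekhm2, Mcf2l and Kif5b, and the share of all genes with that order was not counted. For 1700097N02Rik, passing the filter had already fixed this order. The calls of these 4 genes changed with more settings than that of S100a5. Of 19 alternatives, 2 gave the same values by construction, since no n01 cell has under 500 UMIs and the start of the cell name only exchanges the trained libraries. Of the other 17, S100a5 passed in 14, Mcf2l in 11, Plekhm2 in 10 and Kif5b and 1700097N02Rik in 9 each, and with DESeq2 or with cells under 50% mitochondrial UMIs S100a5 alone passed. Without control 1, control 2 or naris-occluded 2, no gene passed.

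Mcf2l overlaps Gm15351, Gm15353 and Gm38671, and Kif5b overlaps Gm41664. Trak2, which links kinesin-1 to mitochondria, had the next smallest p and did not pass, at 0.97 ± 0.27 (edgeR adjusted p = 0.26).

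**Figure D4:**
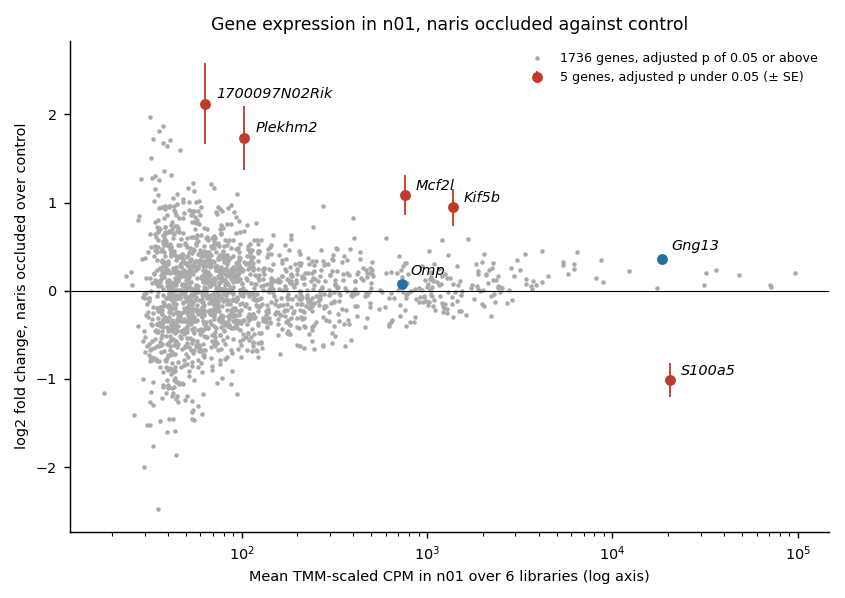
Log2 fold change in n01, naris-occluded over control, against the mean TMM-scaled CPM over 6 libraries (log axis) for 1741 genes. The 5 genes with an adjusted p under 0.05 are red with their SE, S100a5 at −1.01 and 4 genes between 0.95 and 2.12, and Gng13 and Omp (blue) lie at 0.36 and 0.08. The gene at 2.12, 1700097N02Rik, was tested only through the naris-occluded libraries.

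With 0.287% of all tested genes called, a list of 4 to 82 genes would hold no call or few at that share, so a count of 0 is no result about a list. Of 10 tested transduction genes, 0 passed, with a median log2 fold change of 0.09, against 0.00 over all 1741 genes. Gnb1 had the smallest p of them (0.58 ± 0.20, edgeR adjusted p = 0.89). Of 5 tested activity and axon sorting genes, S100a5 alone passed, and Pcp4l1 (−0.62 ± 0.26), Epha5 (−0.70 ± 0.54), Hist2h2be (0.02 ± 0.41) and Ncam1 (0.15 ± 0.40) did not. Of 19 axonal transport genes 1 passed, Kif5b, with a median of 0.03. None of 14 presynaptic genes (median −0.14), 6 immature OSN genes (−0.43), 4 transcription factors (0.17), 13 metal and redox genes (−0.05), 82 ribosomal genes (0.03) or 71 oxidative phosphorylation genes (−0.03) passed. The 13 mitochondrially encoded genes all had values above 0, with a median of 0.24 and no call, beside the medians of 40.5% and 41.8% mitochondrial UMIs in the naris-occluded libraries.

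In the trained libraries no gene differed from control (0 of 1741, 0%), while 84 genes (4.82%) had an unadjusted p under 0.05, and DESeq2 called 0. The count depended on single libraries, with 9 genes without trained 1 (8 of them higher), 2 without control 2 and 1 each without control 1, without naris-occluded 2 and with no filter on low counts. Without trained 1 the trained group held the female pool alone, and Xist, found almost only in the female pools, was among the genes called. The part of sex in those calls was not tested. With all 6 libraries, the 5 genes with the smallest p did not pass, at an edgeR adjusted p of 0.56 each. Chga passed in 1 alternative, without control 2 (−2.79, adjusted p = 0.016), and the other 4 in none. Sult1d1 had 21 and 20 UMIs in control and 6 and 4 in trained libraries (−1.78 ± 0.47), and Saxo2, a microtubule protein of cilia, had 28 and 22, and 9 and 7 (−1.39 ± 0.41). Fabp7, a fatty acid binding protein of ensheathing glia and astrocytes, gave −0.68 ± 0.20, with 1538 and 1214 CPM in control and 1002 and 777 in trained libraries. The summed ensheathing markers were 3243 and 2528 CPM in control and 2309 and 1825 in trained. They include Fabp7 and so are no separate measure. Homer1, a postsynaptic scaffold gene, gave 2.37 ± 0.69, and Chga, a secretory granule protein, gave −2.37 ± 0.72. Homer1 reached the 44.1 CPM of the filter in the 2 trained libraries alone, so it entered the test through the condition where it is high, and Chga reached it in control 1 and naris-occluded 1 alone. Trained and control libraries did not overlap for these 5 genes, nor for 32.7% of all genes. S100a5 gave −0.31 (95% interval −0.68 to 0.07), Gng13 −0.29 (−0.66 to 0.07) and Omp −0.31 (−0.75 to 0.12).

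Between the trained and the naris-occluded libraries, 1 gene passed (0.0574%), and 168 (9.65%) had an unadjusted p under 0.05. Sult1d1 had 30 and 9 UMIs in naris-occluded and 6 and 4 in trained libraries, and 21 and 20 in control, which is 124 and 95.9 CPM, 24.7 and 27.0 CPM, and 78.0 and 94.5 CPM. Trained and naris-occluded libraries did not overlap in 38.2% of the genes. The trained libraries were the lowest of the 6 for Sult1d1, and the share of genes with that order was not counted. Its log2 fold change was −2.29 ± 0.47 (edgeR adjusted p = 0.020), and it passed in 10 of the 17 alternatives that could change it, whose adjusted p ran from 0.0031 to 0.93. It did not pass without naris-occluded 1 (−2.02), without trained 1 (−2.07) or without n01 cells over 1% Malat1 (−1.89), nor with DESeq2 (−2.25), with no scaling factors (−2.14), with no filter on low counts (−2.20) or in the n01 cells of whole-bulb cluster N5 alone (−1.91). In those N5 cells S100a5 was the gene that passed, at 0.89 (edgeR adjusted p = 0.0014). Without trained 2, 37 genes passed.

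Plekhm2 (−1.56 ± 0.37), Mcf2l (−0.95 ± 0.23) and 1700097N02Rik (−1.89 ± 0.46), which were higher in naris-occluded than in control libraries, did not pass between trained and naris-occluded libraries, at an edgeR adjusted p of 0.062 each. Kif5b, the other gene higher with occlusion, gave −0.40 ± 0.21 (adjusted p = 0.58), and it gave 0.55 ± 0.21 for trained over control libraries (adjusted p = 0.77). Homer1, with 1 and 0 UMIs in naris-occluded and 23 and 9 in trained libraries, had the same adjusted p of 0.062 as the first 3, and it reached the 44.1 CPM of the filter in the trained libraries alone. S100a5 gave 0.70 ± 0.19 for trained over naris-occluded libraries (edgeR adjusted p = 0.10), and Gng13 gave −0.65 ± 0.18 (0.11). These calls depended on the setting. With the replicate number, which gives the sex of the pool, as a block, Plekhm2, Mcf2l, Homer1 and Gng13 passed, and 1700097N02Rik and S100a5 did not. Of the 17 alternatives that could change them, Plekhm2 passed in 6, Mcf2l, 1700097N02Rik and S100a5 in 3 each and Gng13 in 2, and Homer1 passed in 6 of 16.

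Since S100a5 and Gng13 UMIs occur in every type, their ratio was followed inside and outside n01. In n01, S100a5 UMIs per Gng13 UMI were 1.63 and 1.36 in control, 0.791 and 0.402 in naris-occluded and 1.42 and 1.5 in trained libraries. In all other annotated cells of the same libraries, the ratios were 1.52 and 1.62, 0.772 and 0.361, and 1.29 and 1.23. In both naris-occluded libraries the ratio outside n01 was close to that in n01. The 2 control libraries stood in the opposite order outside n01, and both trained libraries had a lower ratio outside. Cells of nonneuronal clusters gave 1.52 and 1.61, 0.759 and 0.376, and 1.31 and 1.24.

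Naris-occluded and control libraries did not overlap in this ratio, with a log2 difference of −1.40 in n01 and −1.57 outside. The exact two-sided permutation test gave p = 0.333 for both, which is the smallest value that 2 against 2 libraries allow. Trained and control libraries overlapped in n01, with a log2 difference of −0.03 (exact p = 1), and did not overlap outside it, at −0.32 (exact p = 0.333). The part of a library's S100a5 UMIs that lay in n01 cells was between 24.4% and 44.4%, that of Gng13 between 22.6% and 43.8% and that of Omp between 23.5% and 38.6%, while n01 held between 0.636% and 1.63% of all UMIs. More than 50% of the UMIs of each marker lay in barcodes outside n01 in all 6 libraries, and how much of this was free RNA was not tested.

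**Figure D5:**
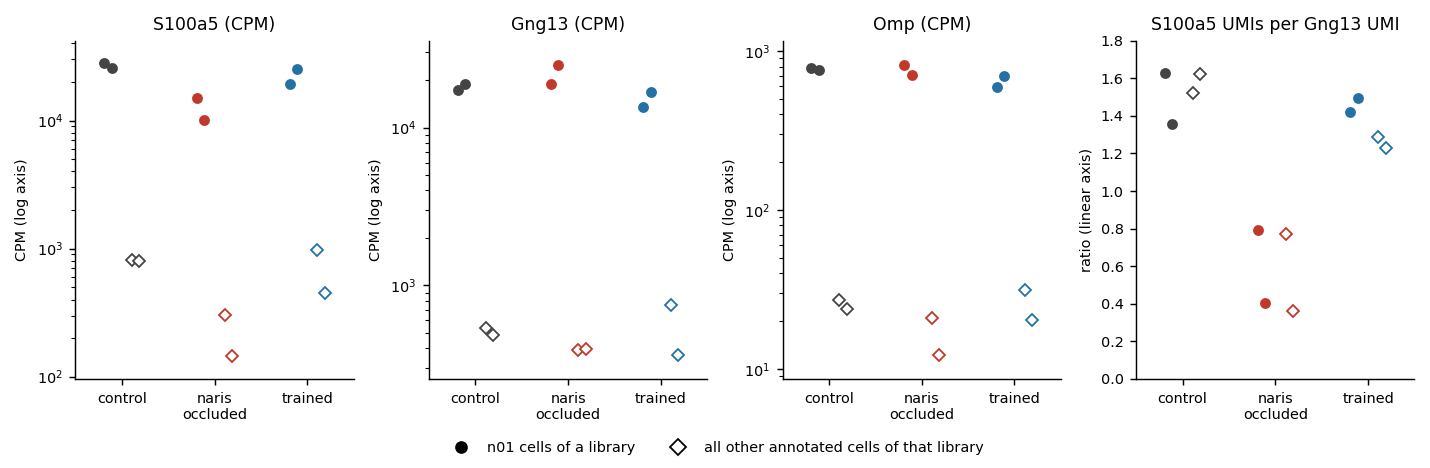
CPM of S100a5, Gng13 and Omp (log axes) and S100a5 UMIs per Gng13 UMI (linear axis) by condition, with each filled circle the n01 cells of 1 library and each open diamond all other annotated cells of that library. The naris-occluded ratios lie at 0.791 and 0.402 in n01 and 0.772 and 0.361 outside, below all control and trained ratios.

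In the other 17 types together, S100a5 gave −2.01 ± 0.38 with occlusion (edgeR adjusted p = 0.077). The effect of occlusion was compared between n01 and these types for 11727 genes, in a fit with a term for each library, and none passed (0%), while 249 (2.12%) had an unadjusted p under 0.05. For S100a5 the difference of the effects was 0.97 ± 0.41 (adjusted p = 1). The other markers had differences of similar size, with 0.84 ± 0.31 for Omp (−0.88 ± 0.27 in the other types) and 0.76 ± 0.40 for Gng13 (−0.54 ± 0.27), and neither passed (adjusted p = 1 each). Plekhm2, Mcf2l and Kif5b gave 0.01 ± 0.22, −0.02 ± 0.12 and 0.06 ± 0.13 in the other types, and the differences of 1.65 ± 0.46, 0.98 ± 0.28 and 0.78 ± 0.29 did not pass (adjusted p = 1 each). For 1700097N02Rik the other types gave 0.68 ± 0.50 and the difference was 1.43 ± 1.02 (adjusted p = 1). For training, 0 of 11727 genes passed (0%) and 258 (2.2%) had an unadjusted p under 0.05. DESeq2 was not run on these differences.

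The share of n01 among the neurons of a library was 5.78% and 6.83% in control, 6.24% and 3.31% in naris-occluded and 5.70% and 5.26% in trained libraries. Naris-occluded 2 was the lowest, and naris-occluded 1 lay between the control libraries. With edgeR on the cell numbers of the 18 types, the log2 change with occlusion was −0.40 ± 0.35 (95% interval −1.12 to 0.31, adjusted p = 0.51), where 1 of 18 types passed (5.56%). The exact permutation test gave p = 0.667. Without naris-occluded 2 the change was −0.01, and without naris-occluded 1 it was −0.93.

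Training gave −0.20 ± 0.34 against control (−0.91 to 0.51, edgeR adjusted p = 0.78, 0 of 18 types, 0%) and 0.20 ± 0.35 against occlusion (−0.51 to 0.92, adjusted p = 0.56, 3 of 18 types, 16.7%). Neither direction was firm, since the value against control was 0.072 with TMM factors added, and leaving out a library the value against occlusion ran from −0.19, without naris-occluded 2, to 0.73, without naris-occluded 1. The neuron totals include n13-AstrocyteLike, whose own share ran from 5.89% in naris-occluded 2 to 23.8% in trained 1.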

How the data were processed

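Cells of 6 libraries were captured with the Chromium Single Cell 3′ v2 kit. Per the labels, the authors made UMI counts per gene and barcode with Cell Ranger 2.0.0 on mm10, and they deposited the counts without normalization, in 1 table of 18560 genes and 52549 barcodes, of which 1123 carry no annotation. The annotations deposited with it give the cluster and library of each cell and its mitochondrial fraction. Per the authors' methods, cells with at least 200 genes were kept, doublets were removed, and clusters came from Seurat 2.2.1 with UMIs and mitochondrial genes regressed out. No further filter was applied here. A log-normalized table was not used.

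UMIs were summed over the n01 cells of each library. Conditions were compared with edgeR 4.0.16 (quasi-likelihood test, all 6 libraries, TMM factors, filterByExpr, Benjamini-Hochberg threshold of 0.05), and numbers of cells with the same test and the neurons of the library as total. SE is the absolute log2 fold change over the square root of F. The difference of effects was fitted on sums of n01 and of the other 17 types, with each library as a term. CPM in the text is over all genes. On simulated data for naris-occluded against control, with 1515 genes tested, the test recovered 100% and 46% of genes raised by 2 and 1 on the log2 scale, 42% and 20% of genes lowered by 2 and 1, and called 0.225% of unchanged genes. For the difference of effects, with 11503 genes tested, it recovered 84%, 6%, 48% and 14%. Both simulations gave all genes a common dispersion and no difference between the sexes, so these rates hold for that setting alone.

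Named genes are the 3 markers, the 20 genes with the largest ratio of n01 to the next type at 50 CPM or more (pseudocount of 1 CPM, above that type in all 6 libraries), up to 4 members per list (1 member is not reported here), genes called and changing the same way in both sexes or, where fewer than 5 passed, the 5 with the smallest p, the 10 receptors with most UMIs, the 5 genes most like Omp, and Xist and Ddx3y. Other members and genes are named beside a count or after their values were seen. The cluster, markers, lists and tests were chosen with earlier results of these data known. Alternatives numbered 115 planned rows, and 6 were added after seeing the data. Positions and promoters are from RefSeq on GRCm38.p6, where all 45 named genes searched were matched. R 4.3.3, limma 3.58.1, DESeq2 1.42.0, numpy 2.4.6, scipy 1.17.1, pandas 2.3.3 and matplotlib 3.10.9 were used.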

Additional observations from a re-analysis of the deposited data

How the results depend on the processing

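Against 5 genes called between naris-occluded and control libraries, DESeq2 and cells under 50% mitochondrial UMIs each gave 1, no filter 2 and no scaling factors 3 (2 higher, 1 lower), and leaving out a library gave 0 to 7. Against 0 calls for training over control, no filter gave 1 (Olfr1420), and leaving out a library 0 to 9. Against 1 call for training over occlusion, DESeq2 and n01 without cells over 1% Malat1 gave 0, no filter, the 4 libraries of these conditions and n01 without shared barcodes 2 each, and leaving out a library 2 to 37. No scaling factors and n01 cells of N5 alone gave 1 call there too, but of S100a5, and no scaling factors moved the median of all genes by 0.14. The difference of effects gave 0 calls under each of its 11 alternatives for either contrast. The cause of these changes was not tested.

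Leaving out a library, the share of n01 among neurons changed by −0.93 to −0.01 with occlusion, by −0.32 to −0.08 with training and by −0.19 to 0.73 for training over occlusion, and with TMM factors added the training value was 0.072 in place of −0.20. None of these shares passed. The change of Omp with occlusion was −0.053 with no filter and, leaving out a library, −0.056 to 0.16. The difference of effects for training turned positive for S100a5 with no scaling factors (0.091). Leaving out a library, it ran from −0.95 to 0.86 for S100a5, −1.20 to 0.46 for Gng13, −0.69 to 0.51 for Omp and −3.34 to 0.60 for Sult1d1, with the highest values without trained 1.

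The replicate number gives the sex of the pool in every condition, and the main tests between conditions held no term for it. Deviations from the group means of libraries with the same number had correlations of 0.060 (control and naris-occluded), 0.11 (control and trained) and 0.064 (naris-occluded and trained). For that reason the numbers were not taken to pair libraries. With the replicate block, calls for training over occlusion went from 1 to 7, which were Sult1d1, Plekhm2 (adjusted p = 0.033), Mcf2l (0.017), Homer1 (0.041), Gng13 (0.017), Pcp4 and Rpl39, and the counts for the other comparisons stayed within 1.5 times. Depth limits genes under the filter, among them all but 1 receptor, and 113 cells in naris-occluded 2 limit its values.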

Other observations

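The annotation gives a UMI total for each cell that can be set against the sum over the genes of the count table. In 214 of 1200 n01 cells (17.8%) the annotated total was larger, by 330 UMIs in all, and in no cell was it smaller. In the other 17 types this held for 21.7% of cells. The largest excess in a cell was 48 UMIs in n01 and 32 elsewhere, and 6 n01 cells had an excess of 4 or more. The genes these UMIs came from were not analysed here. Homer1, which did not pass in n01, gave 0.97 ± 0.13 in the other 17 types with training (edgeR adjusted p = 0.0065), and the difference between n01 and these types was 1.35 ± 0.65 (adjusted p = 1).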
